A study of Mus musculus with 36 samples.

Results

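Gene expression was compared between the colon of wild-type (WT) mice 7 days into a colitis-associated cancer protocol and the colon of untreated WT mice. The groups were formed from the sample titles, 4 arrays each, so 8 of the 36 arrays of the series, and all 17097 genes with a measured probe set were compared. The mice were 6 to 8 weeks old. Treated animals were labelled AOM-DSS. In this protocol azoxymethane (AOM), a carcinogen that damages DNA in the colon, is followed by dextran sulfate sodium (DSS). DSS is a detergent-like polymer given by mouth that wounds the epithelium. The full protocol has 3 cycles of 5 days of 3% DSS and 14 days of plain water. The labels do not say where day 7 falls within a cycle, or how much DSS the mice had received by then. Untreated animals received neither agent, so effects of AOM and of DSS cannot be told apart. The WT mice at day 15 (4 arrays), and mice lacking the IL-17 receptor subunit gene Il17rc (KO), untreated (4 arrays) and at day 7 of the same protocol (4 arrays), are used here for comparison.

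The colon lining is renewed continuously from crypts, where stem cells and their rapidly dividing progeny lie at the base and differentiated absorptive, goblet and enteroendocrine cells lie above. Dividing cells switch on 1 set of genes to copy DNA in S phase and another to condense, attach and separate chromosomes in mitosis, and the transcripts of both sets fall when cells leave the cycle. RNA came from whole minced colon, so fewer dividing cells and less RNA per dividing cell cannot be told apart. Values below are deposited intensities per array, and log2 differences are day 7 minus untreated from a limma model with its standard error (SE), with p-values adjusted over all genes.

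At day 7 the WT colon carried fewer transcripts of the cell division machinery. In all, 283 of 17097 genes passed an adjusted p of 0.05 (1.66%), of which 231 were lower (1.35%) and 52 higher (0.304%). With each array centred on its median in place of quantile normalization, 330 were lower and 31 higher. Of the 231 falls 55 were members of the lists for mitosis and DNA replication, and others were the crypt stem cell regulator Ascl2 and the tight junction gene Cldn2. Among the rises without overlap between groups the largest were those of Retnlb and Slpi, which encode secreted defence proteins of the epithelium. Marker lists of neutrophils, macrophages, T cells and B cells, and targets of the DNA damage regulator p53, had 0 genes past the threshold. With 1.66% of all genes called, lists of this size would hold few or no calls by that share alone. Means were below 16 in both groups, near background, for 8 of 12 neutrophil, 11 of 18 T cell and 6 of 11 B cell genes. The same held for 2 of 18 macrophage genes and 2 of 20 in the p53 list.

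The sequences upstream of 4 of the genes that fell, shown as examples, hold letter matches to elements known from genes of dividing cells. They are taken from RefSeq on build GRCm38.p6, up to 250 bases before the annotated gene start, 5′ to 3′ on the coding strand. Capitals mark every match on either strand to CCAAT (bound by the factor NF-Y), to TTTGAA (a core of the cell cycle genes homology region) and to TTTCCCGC or TTTGGCGC (2 forms of the E2F site). Other forms of the E2F site were not searched and are not marked.
Top2a, chr11:99024200-99024439, minus strand: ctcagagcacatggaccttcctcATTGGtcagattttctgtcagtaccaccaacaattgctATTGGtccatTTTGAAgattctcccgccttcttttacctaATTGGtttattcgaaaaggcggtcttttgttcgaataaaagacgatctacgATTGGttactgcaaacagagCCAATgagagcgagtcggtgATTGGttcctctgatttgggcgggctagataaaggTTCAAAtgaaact
Cdk1, chr10:69352913-69353162, minus strand: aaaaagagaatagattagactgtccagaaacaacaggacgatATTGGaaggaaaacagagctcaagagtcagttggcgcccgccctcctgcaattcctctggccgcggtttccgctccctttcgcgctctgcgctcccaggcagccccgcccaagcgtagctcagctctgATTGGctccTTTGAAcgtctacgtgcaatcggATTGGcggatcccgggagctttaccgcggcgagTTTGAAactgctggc
Ccnb2, chr9:70421555-70421804, minus strand: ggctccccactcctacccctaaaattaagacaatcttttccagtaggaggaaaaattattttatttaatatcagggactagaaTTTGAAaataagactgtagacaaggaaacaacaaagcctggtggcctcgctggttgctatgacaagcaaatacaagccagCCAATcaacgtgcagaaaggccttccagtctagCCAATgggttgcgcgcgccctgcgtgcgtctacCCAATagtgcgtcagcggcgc
Mcm6, chr1:128359706-128359955, minus strand: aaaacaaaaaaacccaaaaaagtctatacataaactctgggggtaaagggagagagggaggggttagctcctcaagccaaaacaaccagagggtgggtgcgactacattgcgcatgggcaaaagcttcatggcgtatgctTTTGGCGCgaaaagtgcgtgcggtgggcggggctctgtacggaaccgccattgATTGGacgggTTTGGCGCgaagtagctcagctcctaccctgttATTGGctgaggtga
Top2a, Cdk1 and Ccnb2, which act in mitosis, held 6, 3 and 3 CCAAT matches and 2, 2 and 1 TTTGAA matches. They held 0 matches to these 2 E2F forms, which leaves other forms of the site uncounted. Mcm6, which acts in replication, held 2 CCAAT and 2 E2F matches and 0 TTTGAA matches. The matches shared 0 bases with each other, and a match is only a run of letters, not a bound site. A part of these elements in the falls was not tested. Among the 231 genes that were lower, 194 had a sequence in the table, and 59.3% of them held CCAAT, 25.3% TTTGAA and 9.3% an E2F match within the 250 bases. Of the 13605 tested genes with a sequence, the shares were 39.6%, 14.0% and 2.2%. The 40 genes with a sequence among those that were higher had shares of 32.5%, 10.0% and 0.0%.

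Il17rc, the gene deleted in KO, read 248 to 330 in untreated WT, 340 to 515 in WT at day 7 and 7 to 15 in untreated KO. In the libraries labelled KO day 7 it read 331, 44, 12 and 10, so replicates 1 and 2 go against their label, and both also carried Krt5. Some arrays carried tissue that others lacked. Krt5, the basal keratin of squamous epithelium such as the anal canal, read 6043 and 2199 in untreated replicates 1 and 4, 817 and 205 in day 7 replicates 1 and 4, and 16 to 18 in the other 4 arrays. The summed intensity of the 19 squamous markers ranged from 940 to 59257 untreated and from 1016 to 18426 at day 7, and 0 of them passed between the groups. Smooth muscle, with 14 markers and sums from 31875 to 39957 untreated and 28250 to 50928 at day 7, also had 0 calls. Leaving out the 4 WT arrays with Krt5 above 100, and the other 3 of the series, left 2 against 2 arrays and 66 called genes, 58 of them lower. Mitosis then had 19 lower genes with a median of -1.69 and DNA replication 7 with a median of -0.97. With the squamous level as a covariate 293 genes passed, with 32 and 23 lower in the lists. Mitosis markers were lower at day 7 in every array, with sums from 5999 to 9038 untreated and 1624 to 2515 at day 7, and DNA replication sums from 5784 to 7223 against 2578 to 3027.

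**Figure D1:**
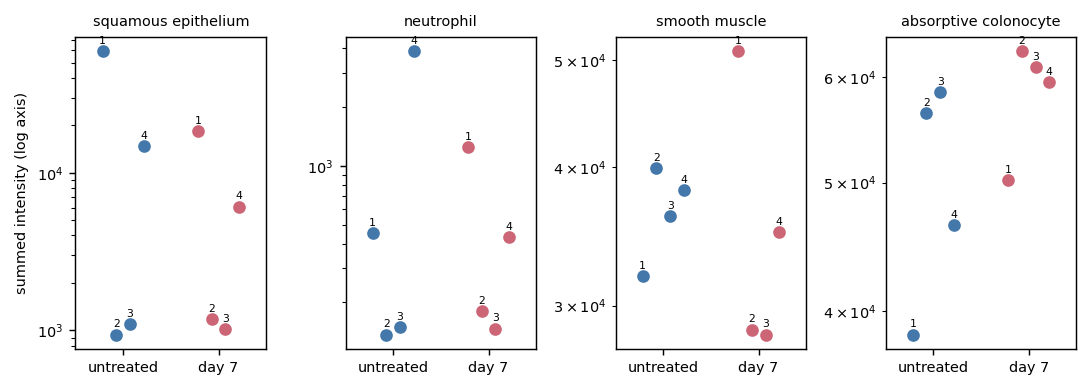
Summed intensity of 4 marker lists in each untreated and day 7 WT array, on log axes, with replicate numbers beside the points. Squamous markers are high in replicates 1 and 4 of both groups, neutrophil markers in untreated replicate 4 (3881) and day 7 replicate 1 (1253).

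Of 36 measured genes in the mitosis list, 32 fell and 0 rose, where 1.35% of all genes fell and 0.304% rose. The median log2 difference was -1.73, against 0.03 over all genes tested. All 36 had a negative difference, and in 34 the 2 groups did not overlap, against 3.91% of all genes lower without overlap (3.35% were higher without overlap, 7.26% in all). Top2a, the topoisomerase that untangles DNA before chromosomes separate, read 600, 325, 510 and 388 in untreated colon and 64, 84, 51 and 80 at day 7. The lowest untreated array stood well above the highest day 7 array, and the log2 difference was -2.52 ± 0.29 (adjusted p = 1.44e-06). Pbk, a mitotic kinase, showed the largest fall of the list, from 299, 176, 270 and 203 to 16, 25, 26 and 36, a log2 difference of -3.06 ± 0.37 (adjusted p = 4.21e-06). Mki67, whose protein Ki-67 is the standard marker of cycling cells, read 809, 591, 791 and 618 untreated and 190, 280, 135 and 217 at day 7. Its mean went from 702 ± 114 (SD, n = 4) to 206 ± 60.3 (n = 4), and it fell by 1.73 ± 0.27 on the log2 scale (adjusted p = 0.000154). Every one of these day 7 arrays lay below every untreated array.

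Members that fell act at several steps of mitosis. Cdk1, the kinase that drives entry into mitosis, went from 573, 341, 511 and 349 to 78, 125, 98 and 106, a log2 difference of -1.97 ± 0.26. Its cyclin partners Ccna2 and Ccnb2 differed by -1.74 ± 0.27 and -1.33 ± 0.26. Among kinases of chromosome attachment and the spindle checkpoint, Aurkb differed by -2.38 ± 0.30, Plk1 by -2.21 ± 0.33 and Bub1 by -2.33 ± 0.35. The second probe set of Aurkb had a difference of -0.52 that did not pass (adjusted p = 0.378). Nusap1 and Prc1, which bundle spindle microtubules, differed by -2.29 ± 0.29 and -2.23 ± 0.31. Cdc20 and Ube2c, which direct protein breakdown at the exit from mitosis, differed by -1.65 ± 0.28 and -1.65 ± 0.27, and Birc5, a partner of Aurkb, by -1.72 ± 0.23. The 4 members that did not pass were Kif23, Kif2c, Ndc80 and Foxm1, and Foxm1, a transcription factor of mitotic genes, read 12 to 17 untreated and 12 to 16 at day 7, near the array medians of 14 to 15.

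Of 36 measured genes in the DNA replication list, 23 fell and 0 rose, where 1.35% of all genes fell and 0.304% rose. The median log2 difference was -1.08. A negative difference was seen in 35, and 29 had groups that did not overlap, against 7.26% of all genes. Licensing factors, which load the replicative helicase onto DNA before S phase, were among the clearest. Cdt1 had the smallest adjusted p of all genes, 5.3e-07, with 410, 336, 328 and 368 untreated against 127, 99, 91 and 119 at day 7 and a log2 difference of -1.60 ± 0.16. Mcm6, a helicase subunit, read 374, 297, 241 and 324 untreated and 81, 64, 74 and 92 at day 7, a log2 difference of -1.83 ± 0.21 (adjusted p = 2.05e-06). The subunits Mcm4, Mcm2, Mcm5 and Mcm7 differed by -2.11 ± 0.24, -1.58 ± 0.28, -1.45 ± 0.29 and -1.35 ± 0.25. Mcm3 had a difference of -0.81 ± 0.29 that did not pass (adjusted p = 0.199).

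At the fork itself, Pola1, the polymerase that starts each new strand, differed by -2.07 ± 0.28 and Fen1, which trims the fragments of the lagging strand, by -1.75 ± 0.24. Pcna, the sliding clamp, was bright in both groups, with 2298, 1835, 1695 and 2070 untreated and 985, 977, 1267 and 1152 at day 7. Its log2 difference was -0.82 ± 0.15 (adjusted p = 0.000831), nearer to 0 than the list median, and its groups also did not overlap. Suppliers of DNA building blocks fell as well, with differences of -1.64 ± 0.22 for Rrm1, -1.30 ± 0.26 for Rrm2, -2.07 ± 0.32 for Tk1 and -0.82 ± 0.22 for Tyms. The Tyms call was lost without any 1 of 6 single arrays (the 4 untreated ones and day 7 replicates 1 and 4), with adjusted p up to 0.199. Uhrf1, which keeps DNA methylation in step with replication, had the largest fall of the list, from 136, 98, 80 and 80 to 19, 15, 10 and 14, a log2 difference of -2.67 ± 0.31. Its day 7 values lay near background, so the size of this difference depends on the pseudocount.

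The 15 largest falls without overlap between groups also held Cdca5, which protects sister chromatid cohesion, Asf1b, a histone chaperone, and Pclaf, a PCNA partner. Their log2 differences were -2.48 ± 0.31, -2.44 ± 0.27 and -2.34 ± 0.25. Outside the lists of replication and mitosis 176 genes were lower, and these 3 are among them.

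**Figure D2:**
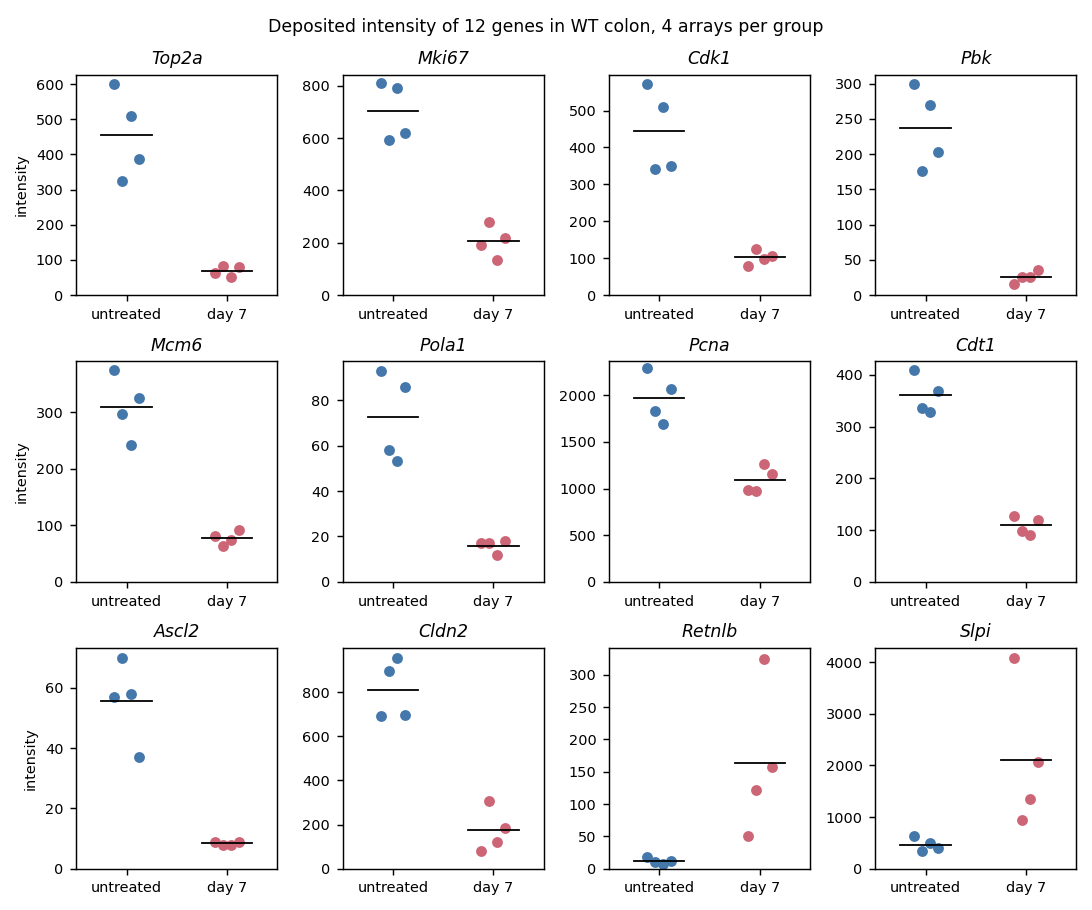
Deposited intensity on linear axes from 0 for 12 genes in untreated and day 7 WT colon. Points are single arrays (4 per group) and bars are group means. The 10 genes from Top2a to Cldn2 were lower in every day 7 array, and Retnlb and Slpi were higher in every one.

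The crypt stem cell list had 2 of 16 measured genes lower and 0 higher, where 1.35% of all genes were lower and 0.304% higher. Its median log2 difference was -0.59. Ascl2, a transcription factor that maintains crypt stem cells, read 57, 70, 58 and 37 untreated and 9, 8, 8 and 9 at day 7, a log2 difference of -2.52 ± 0.43 (adjusted p = 0.00039). All day 7 values were at background, and its 2 dimmer probe sets had differences of -0.91 and -0.75 that did not pass on their own (adjusted p = 0.268 and 0.351). Ephb3, a receptor that holds dividing cells in the lower crypt, went from 219, 110, 118 and 162 to 66, 67, 43 and 53, a log2 difference of -1.19 ± 0.31 (adjusted p = 0.039). Ephb3 lost its call without any 1 of the 4 day 7 arrays or without untreated replicate 1 or 4, with adjusted p up to 0.185 without untreated replicate 1. Lgr5, the classic stem cell marker, read 28, 30, 25 and 39 against 18, 16, 15 and 13, and Smoc2 read 182, 135, 136 and 199 against 53, 68, 38 and 53. Neither passed (adjusted p = 0.38 and 0.056), although neither gene's groups overlapped. Groups did not overlap for 5 of the 16 genes of the list, against 7.26% of all genes.

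Ascl2 was the 1 gene that fell among 18 measured targets of Wnt signalling, the pathway that sustains crypts, where 1.35% of all genes fell. The median of that list was -0.21, and 3 of the 18 had groups that did not overlap, against 7.26% of all genes. The summed intensity of the list was 1361 to 2272 untreated and 996 to 1301 at day 7. Axin2, a direct Wnt target, read 16, 34, 38 and 28 untreated and 10, 15, 13 and 10 at day 7, with a difference of -1.12 ± 0.44 that did not pass (adjusted p = 0.25). In the list of ribosome production genes 1 of 20 fell, Nop56, with a log2 difference of -0.91 ± 0.23 (adjusted p = 0.0309). The list median was -0.36, and 8 of the 20 had groups that did not overlap. Its summed intensity was 5200 to 6416 untreated and 4138 to 4460 at day 7. Without the arrays with Krt5 above 100 the list median was -0.07 and 0 of its genes passed. The Nop56 call was lost without day 7 replicate 2, 3 or 4 or untreated replicate 1 or 4 (adjusted p up to 0.188) and without the arrays with Krt5 above 100.

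Cldn2 encodes a channel-forming claudin of leaky crypt epithelium. It read 693, 894, 955 and 697 untreated and 81, 308, 123 and 185 at day 7, a log2 difference of -2.27 ± 0.47 (adjusted p = 0.00443), and its dimmer probe set gave -1.92 (adjusted p = 0.00738). Fut9, a fucosyltransferase, read 292, 332, 369 and 365 against 50, 83, 46 and 59. Its groups stood far apart, but the model's error was wide and the call narrow (-2.37 ± 0.63, adjusted p = 0.045), and it was lost without any 1 of the 8 arrays and with the replicate number as a block (adjusted p = 0.0594). With only the groups compared in the fit its adjusted p was 0.00107, and its 2 dimmer probe sets had differences of -1.66 and -1.96 that passed (adjusted p = 0.0275 and 0.00981).

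Il33, a cytokine released by injured barrier cells, had the largest fall among called genes whose groups did not overlap, -3.22 ± 0.80 (adjusted p = 0.0281). Its untreated arrays were uneven, at 911, 85, 73 and 410, against 31, 16, 24 and 17 at day 7. The high untreated arrays were replicates 1 and 4, which also carried transcripts of squamous epithelium. Without the arrays with Krt5 above 100 the difference was -1.83 (adjusted p = 0.418), and the call was also lost without any 1 of 5 single arrays (day 7 replicates 2, 3 and 4, untreated replicates 1 and 4), with adjusted p up to 0.174 without untreated replicate 1.

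Few genes rose, and most did so by little. Of the 52, 44 had groups that did not overlap, 7 exceeded 1 log2 unit, and 22 had an untreated mean below 16, near background. Retnlb encodes a goblet cell protein that acts against bacteria. It read 18, 10, 8 and 12 untreated and 51, 121, 325 and 157 at day 7, an 11.3-fold rise (log2 difference 3.50 ± 0.74, adjusted p = 0.00601). Every untreated array was at background, so the fold depends on the pseudocount, and with a pseudocount of 16 it did not pass (2.52, adjusted p = 0.0598). Slpi, a secreted inhibitor of neutrophil proteases, rose from 626, 335, 489 and 410 to 4080, 940, 1356 and 2075. This was a 4.04-fold difference (2.01 ± 0.33, adjusted p = 0.000307), and the highest array was day 7 replicate 1, which carried squamous transcripts. Without the arrays with Krt5 above 100 the Slpi difference was 1.51 (adjusted p = 0.104) and that of Retnlb 4.37 (adjusted p = 0.0533), with 2 arrays left in each group.

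Ccl20, a chemokine that draws lymphocytes to epithelium, read 13, 19, 17 and 22 against 22, 47, 224 and 90, and the groups touched at 22 before normalization. Its difference of 1.99 ± 0.53 just passed (adjusted p = 0.047) and was lost without any 1 of 7 single arrays (all but day 7 replicate 1), with adjusted p up to 0.245 without day 7 replicate 3. Alb, the liver's plasma albumin, read 8, 15, 12 and 8 untreated and 26, 59, 31 and 55 at day 7 (1.98 ± 0.40, adjusted p = 0.00318), low in all arrays but without overlap. Apoa2, another liver-rich plasma protein, moved from 17, 15, 16 and 15 to 28, 38, 27 and 29 (1.01 ± 0.20). The other rises among the 15 largest without overlap between groups lay between 0.67 and 0.93 log2 units. They were Tle6, Ss18l1, Nupr1, Lce1h, Mrps6, Trim12c, Slc7a7, P2rx4, Tln2 and Pglyrp1. Of these 10, Lce1h alone kept its call without each single array. Over all 21 alternative settings it kept the call in 19, with adjusted p up to 0.44. P2rx4 lost it without any 1 of the 8 arrays, Trim12c without 7 (all but day 7 replicate 2), Tle6 without 5 (day 7 replicates 2, 3 and 4, untreated replicates 1 and 4) and Tln2 without 5 (day 7 replicates 1 and 4, untreated replicates 2, 3 and 4). Mrps6 lost it without day 7 replicate 2, 3 or 4 or untreated replicate 1, Nupr1 without day 7 replicate 2 or 3 or untreated replicate 1, and Ss18l1 without day 7 replicate 2 or untreated replicate 1 or 4. Pglyrp1 lost it without day 7 replicate 1 or 3 or untreated replicate 1, and Slc7a7 without untreated replicate 1. Among these losses without a single array the highest adjusted p was 0.185, for Tle6. Nupr1, a stress-induced regulator, went from 393, 632, 636 and 790 to 913, 1208, 1264 and 1037, and Pglyrp1, which binds bacterial cell walls, from 205, 251, 268 and 286 to 450, 380, 392 and 339. Ccn3, named after its values were seen, rose by 2.84 ± 0.70 with overlapping groups, at 28, 111, 27 and 54 untreated and 34, 757, 786 and 565 at day 7.

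Differentiated epithelium did not show a called loss. Among 24 absorptive colonocyte genes 0 passed, with a median difference of 0.15, where 1.66% of all genes passed. Car1, a carbonic anhydrase, read 3997, 5987, 6395 and 5049 untreated and 5865, 6615, 6118 and 6203 at day 7, and Krt20, a keratin of mature surface cells, read 2455, 3203, 3506 and 3052 against 2765, 3590, 3090 and 3312. The chloride exchanger Slc26a3 read 1276, 2629, 2739 and 2209 against 1819, 2695, 2687 and 2385. The SE of these differences, from 0.29 for Krt20 to 0.73 for Slc26a3, leaves room for changes of moderate size. Of 15 goblet cell genes Retnlb alone rose and the median was 0.34. The mucus genes Clca1 and Tff3 had differences of 0.39 ± 0.48 and 0.30 ± 0.26. Of 17 enteroendocrine genes 15 had a positive difference, with a median of 0.63, but 0 passed. Pyy, a gut peptide hormone, read 645, 1639, 1306 and 983 against 1667, 2844, 2394 and 2323 (1.07 ± 0.34, adjusted p = 0.13).

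p53, which halts division after DNA damage, acts through targets such as the cell cycle inhibitor Cdkn1a. Cdkn1a read 780, 870, 857 and 846 untreated and 727, 783, 787 and 811 at day 7, a difference of -0.10 ± 0.20, and Mdm2 differed by 0.22 ± 0.15. Among 20 measured p53 targets and alkylation repair genes 0 passed, and the median was -0.02. Of all genes 1.66% passed, so a list of this size would hold few or no calls by that share alone. A role of p53 was not tested.

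Inflammatory genes had few calls in number, where 0.304% of all genes were called higher and 1.35% lower. In the list of type 17 cytokines and IL-17-induced genes Ccl20 alone rose, 1 of 16, and the median was -0.10. Il17a read 9 to 12 in both groups, and the neutrophil chemokine Cxcl1 read 12, 8, 11 and 26 against 10, 8, 13 and 12. In the antimicrobial and acute-phase list 3 of 21 rose, Slpi, Alb and Retnlb, with a median of 0.03. The shares that rose in these lists were above that of all genes, on 1 and 3 calls. The lists were chosen with earlier results known. Saa3, an acute-phase protein, read 11, 12, 14 and 14 against 15, 12, 23 and 16. Among 12 neutrophil genes 0 passed, and S100a8, abundant in neutrophils, read 35, 10, 11 and 1101 untreated and 220, 14, 13 and 52 at day 7. Untreated replicate 4 was thus the highest, as it was for Lcn2 at 1566 against 14 to 89 in the other untreated arrays, and without this array 0 neutrophil genes passed again, with a median of 0.07. The interferon-gamma and antigen presentation list had 0 of 26 genes called, with 23 positive differences and a median of 0.70.

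**Figure D3:**
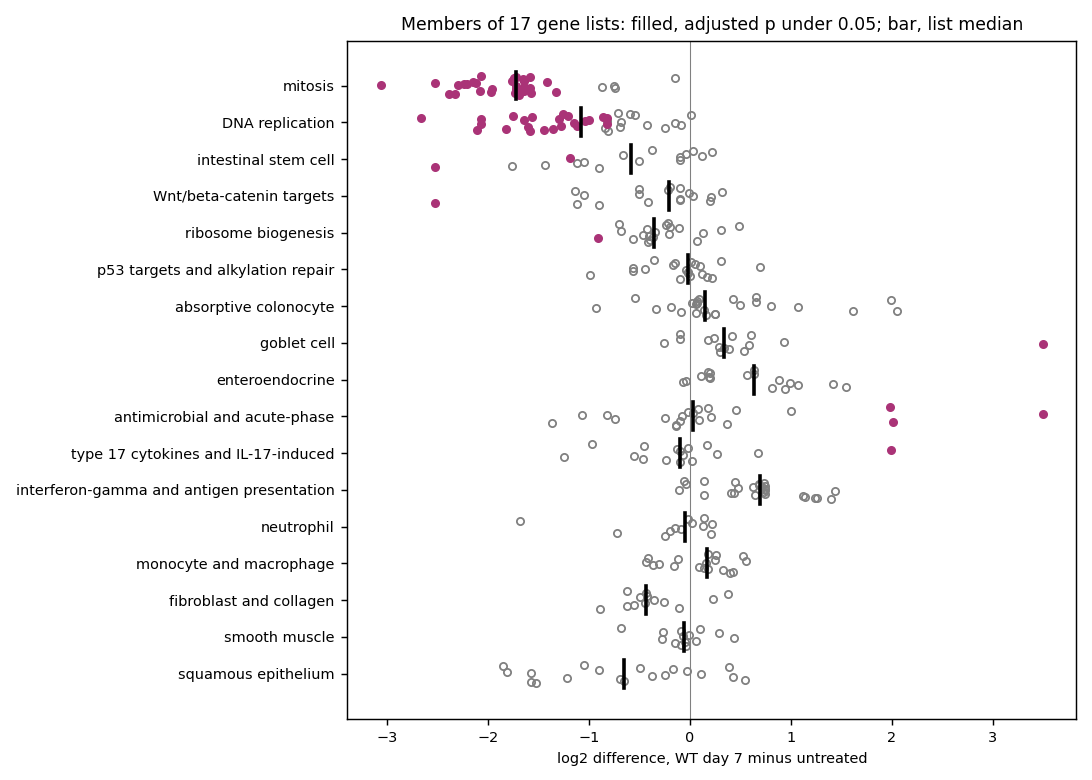
Log2 difference of WT day 7 minus untreated for each measured member of 17 gene lists. Filled points passed an adjusted p of 0.05 and bars are list medians. Mitosis (median -1.73, 32 of 36 filled) and DNA replication (median -1.08, 23 of 36 filled) stand to the left of the other lists.

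By day 15 some division genes had risen again in WT colon. This comparison uses the same day 7 arrays as the one above, so the values of both are only set side by side. Between day 7 and day 15, 509 genes passed (2.98%), 315 higher (1.84%) and 194 lower (1.13%), a share of 61.9% higher that became 75.7% after median centring of the arrays. It was 47.9% (136 higher, 148 lower) when arrays with Krt5 over 100 were dropped, 52% with the squamous level as a covariate and 50.9% with array weights. All 72 genes of the replication and mitosis lists had a positive difference, and 17 and 12 of them rose, with medians of 0.66 and 0.88. Mcm4 returned from 35, 37, 41 and 42 to 131, 235, 163 and 288 (2.17 ± 0.24), against 246, 190, 142 and 197 untreated. Top2a read 116, 309, 316 and 326 at day 15, above every day 7 array, and 3 of these 4 arrays lay below the lowest untreated array. Ascl2 stayed low, at 9, 12, 27 and 10, and its difference of 0.61 did not pass (adjusted p = 0.48). Day 15 replicate 1 stood apart, with a mitosis sum of 1847 against 4681 to 5110 in the other 3 arrays. Without the arrays with Krt5 above 100, 12 replication and 2 mitosis genes rose.

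Retnlb went on rising to 905, 2813, 2825 and 704 at day 15 (3.40 log2 units above day 7, adjusted p = 0.008), whereas Alb was back at 9, 8, 9 and 8. Single arrays moved the count of 509. It became 871 without day 15 replicate 3, 295 and 235 without day 15 replicates 2 and 4, and 288 and 287 without day 7 replicates 2 and 4.

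**Figure D4:**
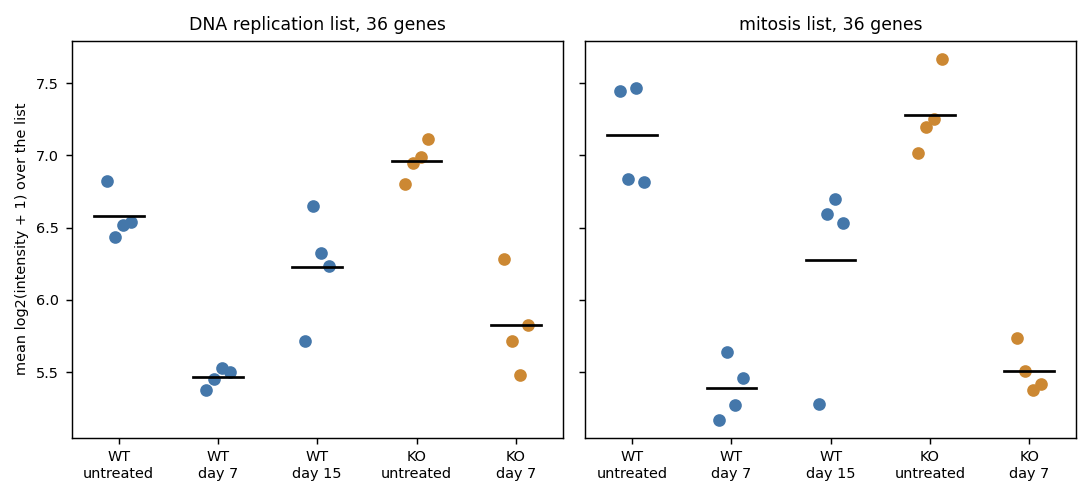
Mean log2(intensity + 1) over the 36 genes of the DNA replication list and of the mitosis list for each array of 5 groups, with group means as bars. WT day 7 arrays lie below all untreated WT arrays in both lists, and day 15 arrays lie mostly between them.

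The KO arrays gave a second measurement of day 7 against untreated that shares no array with WT. With all 4 libraries labelled KO day 7, 2084 genes passed (12.2%), 964 higher (5.64%) and 1120 lower (6.55%), and the share of these that were higher, 46.3%, became 24.3% with arrays centred on their medians. The count was 1315 without KO day 7 replicate 3. In KO 35 of 36 mitosis genes and 31 of 36 replication genes fell, with medians of -1.81 and -1.10, and without replicates 1 and 2 these counts were 34 and 30. Of the 231 genes lower in WT, 174 were also called lower in KO, 75.3% of the WT list and 15.5% of the 1120 lower genes in KO, and 221 had the same sign. Without replicates 1 and 2 of KO day 7 the refit called 245 genes lower in WT and 861 in KO. The overlap was then 170 genes, 69.4% of that WT list and 19.7% of that KO list.

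Whether the change at day 7 differed between genotypes was tested directly as KO minus WT. This difference was called for 404 genes (2.36%), 109 higher (0.638%) and 295 lower (1.73%), but for 0 of the 72 replication and mitosis genes, with a smallest adjusted p of 0.191, also after leaving out KO replicates 1 and 2 or the arrays with Krt5 above 100. Leaving out 1 array changed the 404 to 898 for WT day 7 replicate 1, 206 for WT day 7 replicate 3 and 256 for WT untreated replicate 4. Top2a, for example, read 494, 540, 567 and 686 in untreated KO and 146, 91, 86 and 98 at day 7, and its KO minus WT difference was 0.16. Ascl2 and Cldn2 had log2 differences of -2.33 ± 0.43 and -1.62 ± 0.47 in KO, and both passed (adjusted p = 0.00029 and 0.0197).

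Of the 52 genes higher in WT, 10 were called higher in KO, 19.2% of the WT list and 1.04% of the KO list, and 8 had a called genotype difference. That difference was tested with the same WT arrays that picked the 52, which favours such calls. Retnlb went the other way in KO, from 182, 243, 208 and 176 to 14, 35, 94 and 15, and the KO minus WT difference was -6.22 (adjusted p = 0.000451). Slpi read 1722, 2077, 2780 and 2260 in untreated KO and 1847, 2341, 2654 and 1895 at day 7, so it was already high there, and the difference was -1.96 (adjusted p = 0.0175). That call was lost without the arrays with Krt5 above 100 (-1.40, adjusted p = 0.169) and without KO day 7 replicates 1 and 2 (-1.91, adjusted p = 0.0658). Alb rose in both, by 2.92 log2 units in KO, from 9, 10, 11 and 9 to 49, 71, 96 and 98.

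**Figure D5:**
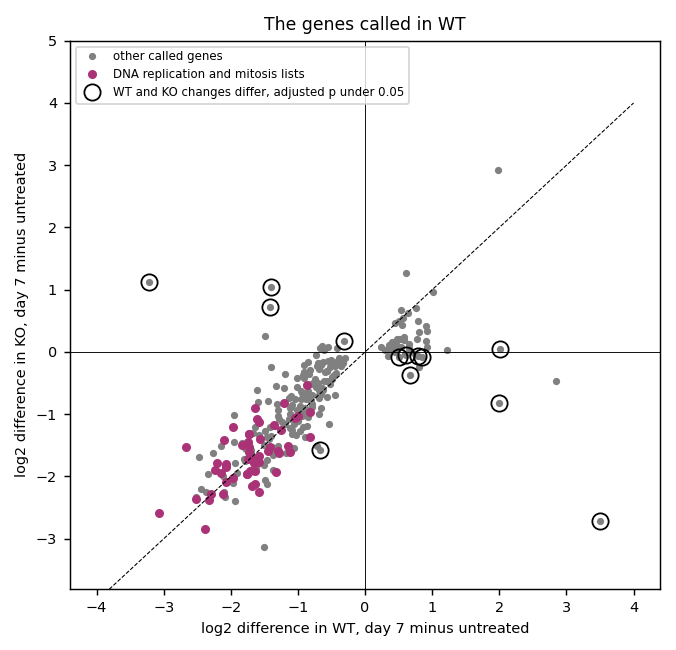
Log2 difference of day 7 minus untreated in KO against that in WT for the 283 genes called in WT, which share no arrays between axes. Purple marks genes of the replication and mitosis lists, the dashed line equal change, and circled genes, among them Retnlb at 3.50 and -2.72, had a called genotype difference. The test of that difference includes the WT arrays by which the genes were picked.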

How the data were processed

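Total RNA from minced, homogenized colon, 1 Affymetrix HT MG-430 PM array per sample, was measured on 36 arrays. The authors deposited linear intensity values per probe set, as whole numbers. How background was removed and probes were summarized is not stated in the labels. The table held 45037 probe sets with values from 4 to 14185. Arrays have no read depth, so their number sets the precision. The labels do not say whether replicates are separate animals, and p-values therefore cover only the spread among the arrays, which may be technical.

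Intensities were converted to log2 after adding 1 and quantile normalized. Of the probe sets 28898 had 1 gene symbol, 551 several and 15588 none; each gene took its brightest probe set over all arrays, leaving 17097 genes. A limma model (3.58.1, R 4.3.3) had 1 mean per group over all 36 arrays, with moderated variances and an intensity trend, adjusted by Benjamini-Hochberg at 0.05. The arrays of the 2 WT groups correlated at 0.943 to 0.99. The members and gene lists were chosen with earlier results of these data known. Genes named were the 15 largest rises and 15 largest falls past the threshold without overlap between groups, list members where a list is described, and Il17rc. Same-numbered untreated and day 7 WT arrays deviated together (residual correlations 0.165 to 0.397), but differently numbered ones ranged from -0.464 to 0.457, and in both groups replicates 1 and 4 carried squamous transcripts. The same-numbered arrays were taken as paired for the alternative with the number as a block, though the labels state no pairing. Other alternatives were another pseudocount, normalization or probe rule, a dim-gene filter, other variance moderation, array weights, blocks on the title codes and leaving out arrays. Probe sets tested singly, and the lists, overlaps and genotype differences without the arrays with Krt5 above 100, without KO day 7 replicates 1 and 2 or without untreated replicate 4, were added after seeing the data. On simulated data for WT day 7 against untreated, with 100 changed genes of each size among 17097, 85% of changes of 1 log2 unit and 94% of 2 log2 units were recovered. The simulated noise was independent between genes, with the spread of the fitted model. Tissue differences that many genes of an array share were not simulated, so recovery in the real arrays may be lower. Upstream sequences came from RefSeq, GRCm38.p6.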

Additional observations from a re-analysis of the deposited data

Results flagged for a closer look

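The day 7 change differed between genotypes, by a test of the difference itself (KO minus WT, limma, adjusted over all genes), for 7 of the 74 genes whose values are printed. Many of these genes were picked by their change in the same WT arrays, which favours a call. The 7 of 74 is therefore not to be set against the 2.36% called among all genes. The log2 difference was -6.22 for Retnlb (adjusted p = 0.000451), -1.96 for Slpi (0.0175), -2.82 for Ccl20 (0.0387), -1.04 for Pglyrp1 (0.00821), -0.93 for Lce1h (0.0165), -0.84 for Slc7a7 (0.047) and 4.35 for Il33 (0.0334). Il33 was high in arrays with Krt5, untreated WT replicates 1 and 4 and KO day 7 replicates 1 and 2, of which the last 2 also go against their label. Its difference was 0.99 (adjusted p = 0.687) without the arrays with Krt5 above 100 and 2.38 (0.24) without those 2 KO arrays. Retnlb kept its call in both cases, at -6.74 (0.00661) and -5.87 (0.00603). Without the arrays with Krt5 above 100 Ccl20 also kept it (0.044), and Slpi (0.169), Pglyrp1 (0.0559), Lce1h (0.189) and Slc7a7 (0.11) did not. Without the 2 KO arrays Pglyrp1 (0.0226) and Lce1h (0.0235) kept it, and Slpi (0.0658), Ccl20 (0.0787) and Slc7a7 (0.131) did not.

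In 6 of 148 groups of 4 arrays 1 array stood far from the other 3 by Dixon's test at 95%, a share that chance alone would give for about 1 group in 20. Mrps6 read 337 in untreated replicate 1, against 684 in the next array. Trim12c read 59 in day 7 replicate 2, next to 76, and Ccn3 read 34 in day 7 replicate 1, next to 565. Prc1 read 42 in day 7 replicate 2, next to 27, and Pola1 read 12 in day 7 replicate 3, next to 17. Olfm4, a stem cell list member, read 1907 in untreated replicate 1 and 9 or less in the other untreated arrays.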

How the results depend on the processing

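For WT day 7 against untreated, the number of called genes was 283 and became 153 with only the groups compared in the fit, 1447 with array weights (48.8% higher), 119 with a block on the title code's letter and 162 on its number. Dropping arrays with Krt5 over 100 gave 66. The cause was not tested. It was 248 to 376 under another pseudocount, normalization, dim-gene filter, probe rule, variance trend, the squamous level as a covariate and the replicate block (322), and 188 to 268 without each single array, lowest without WT untreated replicate 1. For WT day 15 against day 7 (509) the moved counts were 72, 1926, 259, 284 and 865 (only the groups compared, weights, letter, Krt5 arrays out, squamous covariate), and 235 to 871 without single arrays. For KO day 7 against untreated (2084) they were 3188, 4851 and 1298 (groups compared, weights, letter), and 1315 to 2276 without single arrays. For the genotype difference (404) array weights gave 2504, and single arrays 206 to 898. The replicate block gave 595, 1924 and 469 for the last 3. Followed across these settings were 85 genes, which are the 15 largest rises and falls, the called members of the lists described and the 6 IL-17 receptor genes. No called one changed direction. Il17ra, not called at 0.09, was -0.06 with arrays centred or not normalized and -0.27 with the letter block. Of the 85, 49 lost their call without the Krt5 arrays and 3 (Trim12c, P2rx4 and Fut9) with the replicate block, which changed no other call among them. Log2 differences near background depend on the pseudocount, and depth does not apply to arrays.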

Other observations

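Interferon genes were high in untreated KO colon before any treatment. The summed intensity of the 26 genes of the interferon-gamma and antigen presentation list was 36005 to 40637 in untreated KO, 3526 to 5597 in KO at day 7, 3416 to 5617 in untreated WT and 5494 to 8239 in WT at day 7. The untreated KO arrays thus stood apart, and KO at day 7 lay in the range of untreated WT. In the interferon-gamma and antigen presentation list, 0 of 26 genes passed in WT at day 7, with a median log2 difference of 0.70, and 25 fell in KO, with a median of -3.04. The genotype difference itself was called for 24 of the 26. Of all genes, 1.66% passed in WT, 6.55% fell in KO and 2.36% had a called genotype difference. In the type I interferon list 0 of 16 passed in WT, with all 16 positive and a median of 0.37, and 14 fell in KO, where 10 had a called genotype difference. Its sums were 4030 to 8413 in untreated KO against 957 to 1863 in untreated WT. Marker sums of T cells (779 to 1012 against 215 to 250), plasma cells (5717 to 8106 against 2237 to 5159) and monocytes and macrophages (3132 to 4843 against 1394 to 2831) were also higher in untreated KO than in untreated WT, without overlap, and their part in the result was not tested. Replicates 1 and 2 of the libraries labelled KO day 7 are included in these counts. In KO day 7 replicates 3 and 4 the interferon-gamma and antigen presentation sums were 5597 and 3526.

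The following lists of metabolism and stroma had 0 calls in WT at day 7, where 1.66% of all genes were called. Cholesterol synthesis had 14 of 14 positive differences and a median of 0.13, the respiratory chain 20 of 22 and a median of 0.07, and fibroblast and collagen genes 11 of 13 negative and a median of -0.43.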
